A study of Caenorhabditis elegans with 2 samples.

Results

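The mir-51 family of Caenorhabditis elegans comprises the microRNA (miRNA) genes cel-mir-51 to cel-mir-56. Its 6 members were taken from the 261 annotated miRNA genes, and they lay at 4 separate loci, 3 on chromosome IV and 1 on chromosome X. The family was selected on the signal values of nearby peaks, with earlier results of these data known, so its heights and ranks are given as a description and no test was made. The polymerase II subunit AMA-1, its largest, had been mapped by chromatin immunoprecipitation and sequencing (ChIP-seq) in whole late embryos of the wild-type strain N2, of mixed sex and unknown age. The 2 biological replicates formed 1 group with 1 antibody, and no control sample was analysed here. Each replicate had a relaxed list of 30000 peaks, a pooled list of 30000 peaks came from both, and a final list held 476 peaks passing the irreproducible discovery rate (IDR). A peak counted for a member when its summit lay within 1 kb of the annotated hairpin gene, and 6 of the 476 IDR peaks did so.

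RNA polymerase II transcribes most miRNA genes as long primary transcripts. The nuclear enzyme Drosha with its partner Pasha cuts the hairpin out of these, Dicer cuts the hairpin into short arms, and an Argonaute protein keeps one arm as its guide. The guide pairs with messenger RNAs mainly through its seed, bases 2 to 8. In C. elegans the family is known for acting redundantly in the embryo, where loss of all its members is lethal and leaves the pharynx detached from the mouth, and the cadherin gene cdh-3 is a reported target. Its seed is that of the miR-99 and miR-100 family of other animals.

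The guide arms show what makes these 6 genes a family. They are printed 5′ to 3′ from the RefSeq annotation of WBcel235, the assembly also called ce11, with the seed in capitals:

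cel-mir-51 (5p arm): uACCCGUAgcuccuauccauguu
cel-mir-52 (5p arm): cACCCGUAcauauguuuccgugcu
cel-mir-53 (5p arm): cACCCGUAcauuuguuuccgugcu
cel-mir-54 (3p arm): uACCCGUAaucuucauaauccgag
cel-mir-55 (3p arm): uACCCGUAuaaguuucugcugag
cel-mir-56 (3p arm): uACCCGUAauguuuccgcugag

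All 6 genes had an arm with the seed ACCCGUA, which pairs with UACGGGU in a target. That arm was taken as the guide because it carries the shared seed, not from a measurement of which arm is kept. Among 260 RefSeq miRNA genes with 458 annotated mature arms, these 6 genes were the ones with that seed. The guide is the 5p arm in cel-mir-51, cel-mir-52 and cel-mir-53, and the 3p arm in the 3 members on the X chromosome. Beyond the seed the arms diverged. Over the 15 pairs of members, identity of the whole guide, seed included, ran between 55.2% and 95.8% with a median of 65.4%. Identity of the hairpin ran between 45.1% and 79% with a median of 50.9%. The arm opposite the guide was 36.7% to 72.7% identical, with a median of 50%. The closest pair was cel-mir-52 and cel-mir-53, whose guides differ by A12U, counted from the 5′ end with the cel-mir-52 base first. The next closest guides, those of cel-mir-55 and cel-mir-56, were 87.0% identical.

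The peaks themselves differed widely in height among the members. Height here means the signal value in the authors' deposited lists, a score from their peak caller with no stated scale, and rank 1 is the highest peak of a list. The stretches under the highest summit of each locus are shown here because they carry the family's peaks. Each is 201 bases of ce11 centred on the summit of the pooled list, which is base 101, read 5′ to 3′ on the strand of the gene, with the bases of the named hairpin gene in capitals. The windows are IV:14033933-14034133 on the plus strand for cel-mir-52, X:13145044-13145244 on the minus strand for cel-mir-54, IV:11026104-11026304 on the minus strand for cel-mir-51 and IV:11027554-11027754 on the minus strand for cel-mir-53:

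cel-mir-52: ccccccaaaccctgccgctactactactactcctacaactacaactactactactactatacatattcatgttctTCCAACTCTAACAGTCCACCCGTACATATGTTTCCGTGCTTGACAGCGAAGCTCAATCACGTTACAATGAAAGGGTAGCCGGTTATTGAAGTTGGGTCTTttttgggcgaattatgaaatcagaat
cel-mir-54: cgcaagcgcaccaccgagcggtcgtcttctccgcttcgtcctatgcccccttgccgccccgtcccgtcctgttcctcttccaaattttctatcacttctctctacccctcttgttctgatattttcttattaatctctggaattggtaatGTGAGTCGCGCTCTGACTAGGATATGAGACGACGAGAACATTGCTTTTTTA
cel-mir-51: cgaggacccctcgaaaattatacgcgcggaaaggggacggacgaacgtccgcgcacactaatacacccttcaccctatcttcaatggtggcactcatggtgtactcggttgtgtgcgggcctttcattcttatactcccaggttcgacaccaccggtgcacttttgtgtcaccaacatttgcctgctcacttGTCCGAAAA
cel-mir-53: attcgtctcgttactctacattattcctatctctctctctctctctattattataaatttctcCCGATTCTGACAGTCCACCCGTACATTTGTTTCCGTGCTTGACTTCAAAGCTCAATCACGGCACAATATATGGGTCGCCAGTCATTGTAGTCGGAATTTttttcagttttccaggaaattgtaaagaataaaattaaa

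The windows of cel-mir-52 and cel-mir-53 hold the whole hairpin gene, 100 and 99 bases. That of cel-mir-54 holds 51 bases of the hairpin, and that of cel-mir-51 holds 9, because the summit lies upstream. The GC content of the windows was 42.8% for cel-mir-52, 49.3% for cel-mir-54, 52.7% for cel-mir-51 and 36.8% for cel-mir-53.

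cel-mir-52 (WBGene00003280, IV:14034008-14034107, plus strand) had the highest AMA-1 peak of every list. Its signal value was 1292.34 in replicate 1, 144.16 in replicate 2 and 1427.63 in the pooled and IDR lists. The next highest peak of the same list had 717.5 in replicate 1, 92.2 in replicate 2 and 808.3 in the pooled list, so the cel-mir-52 peak was 1.80, 1.56 and 1.77 times the second. Against the median peak of its list it was 113 times as high in replicate 1, 22.5 times in replicate 2 and 90.5 times in the pooled list. The summit lay inside the hairpin gene in both replicates, 28 bp from its 5′ end in replicate 1 and 39 bp in replicate 2, a difference of 11 bp. It was at 14034033 in the pooled list, 14034036 in replicate 1 and 14034047 in replicate 2, each within the guide arm at 14034024 to 14034047.

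The rank 1 interval spanned 692 bp (14033763 to 14034454), where the usual width in the pooled list is 350 bp. The same interval was listed a second time with a summit at 14034236, 129 bp past the hairpin, at rank 407 with a signal value of 51.94. That second summit had 63.2 at rank 139 in replicate 1, and the nearest one in replicate 2, at 14034301, had 12.4 at rank 1645. A further IDR peak stood 1265 bp upstream of the hairpin, just outside the 1 kb limit, at rank 77 with 92.0. It ranked 141 in replicate 1 with 63.1 and 26 in replicate 2 with 34.0. Just inside the limit, a pooled summit 908 bp past the hairpin had rank 8148 and 20.5. The high signal at cel-mir-52 was thus accompanied by a lower peak upstream in both replicates.

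No protein-coding gene lay close to cel-mir-52. The nearest, Y37A1B.7, was 8488 bp downstream of the hairpin on the opposite strand. The annotation instead places 6 non-coding RNA genes of the Y37A1B series within 1 kb. Of these, 1 overlaps the hairpin on the opposite strand, and the summit lies inside it too. Another ends 4 bp upstream of the hairpin on the same strand, and the other 4 lie between 142 and 837 bp upstream. ChIP-seq peaks carry no strand, so polymerase on cel-mir-52 and on these overlapping or adjoining genes cannot be told apart.

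cel-mir-54, cel-mir-55 and cel-mir-56 form the X chromosome cluster and shared one highest peak. The genes (WBGene00003282, X:13144996-13145094; WBGene00003283, X:13144827-13144924; WBGene00003284, X:13144691-13144787) all lie on the minus strand, 72 and 40 bp apart. Their peak had a signal value of 131.5 at rank 20 in replicate 1, 39.5 at rank 17 in replicate 2 and 135.5 at rank 27 in the pooled and IDR lists. The pooled summit at 13145144 lay 50 bp upstream of cel-mir-54, 220 bp upstream of cel-mir-55 and 357 bp upstream of cel-mir-56. Both replicates placed it upstream of all 3 hairpins, 6 bp from the 5′ end of cel-mir-54 in replicate 1 and 138 bp in replicate 2. The 2 summits were 132 bp apart, the widest gap among the 4 loci. The pooled interval of 181 bp (13145042 to 13145222) overlapped the cel-mir-54 hairpin and neither of the other 2. One summit serves 3 genes here, so the 3 members are 1 measurement and not 3.

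A second IDR peak stood on the other side of the cluster. Its summit at 13144171, 520 bp past the 3′ end of cel-mir-56, had 95.3 at rank 66 in the pooled list and 71.7 at rank 92 in replicate 1. The nearest summit in replicate 2 was closer to the cluster, 324 bp past cel-mir-56, with 17.2 at rank 368. That position matched a separate and lower pooled summit, 314 bp past cel-mir-56 at rank 4683, better than the rank 66 summit. The lower summit ranked 26869 in replicate 1, at 323 bp past cel-mir-56. The replicate 2 value is therefore no clear counterpart of the rank 66 peak. Between the 2 IDR peaks, a pooled summit 19 bp past cel-mir-56 had 48.2 at rank 528, just below the IDR list. It had 38.9 at rank 511 in replicate 1 and 16.5 at rank 441 in replicate 2. The cluster is embedded in an intron of the protein-coding gene F09A5.3, which runs on the opposite strand, and both IDR summits lie in that intron. The non-coding RNA gene F09A5.11 (X:13145213-13145271) lies upstream of cel-mir-54 on the same strand. The highest replicate 2 summit, at 13145232, lay inside F09A5.11, whereas the pooled and replicate 1 summits of that peak lay outside it. The hairpin cel-mir-55b, which is no member of the family, overlaps cel-mir-55 on the opposite strand and shares the rank 27 peak.

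cel-mir-51 (WBGene00003279, IV:11026013-11026112, minus strand) had a lower peak that also lay upstream. The signal value was 70.0 at rank 99 in replicate 1, 27.7 at rank 47 in replicate 2 and 95.8 at rank 65 in the pooled and IDR lists. The summit was 92 bp upstream of the hairpin in the pooled list, 101 bp in replicate 1 and 138 bp in replicate 2. In the pooled list and in replicate 1 it lay inside F36H1.17 (IV:11026131-11026219), a non-coding RNA gene on the same strand that ends 19 bp upstream of cel-mir-51, whereas the replicate 2 summit at 11026250 lay upstream of that gene. The nearest protein-coding gene is alh-3, which encodes an aldehyde dehydrogenase family protein. It runs on the opposite strand and ends 143 bp downstream of the hairpin, so the pooled summit lay 334 bp past its end. Lower summits 875 and 660 bp past the 3′ end of cel-mir-51 had ranks 642 and 2182 in the pooled list, and both lay inside alh-3. They ranked 1005 and 1196 in replicate 1. In replicate 2 the first ranked 11162 and no counterpart of the second was listed.

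cel-mir-53 (WBGene00003281, IV:11027593-11027691, minus strand) had the lowest of the 4 peaks. Its signal value was 50.5 at rank 252 in replicate 1, 20.3 at rank 185 in replicate 2 and 73.1 at rank 146 in the pooled and IDR lists. As at cel-mir-52, the summit lay inside the hairpin gene in both replicates, 58 bp from the 5′ end in replicate 1 and 20 bp in replicate 2. The pooled summit at 11027654, 37 bp from the 5′ end, and the replicate 2 summit at 11027671 lay within the guide arm (11027653 to 11027676), the pooled one at its edge. The replicate 1 summit at 11027633 lay in the opposite arm (11027614 to 11027635). The nearest protein-coding gene, hrg-5, ends 598 bp upstream on the same strand. cel-mir-53 and cel-mir-51 are neighbours on chromosome IV, and each has its own peak: the cel-mir-51 summit is 1389 bp past the cel-mir-53 hairpin. The 2 genes with nearly the same guide, cel-mir-52 and cel-mir-53, therefore stood at opposite ends of the family's heights, at 1427.63 and 73.1 in the pooled list.

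**Figure D1:**
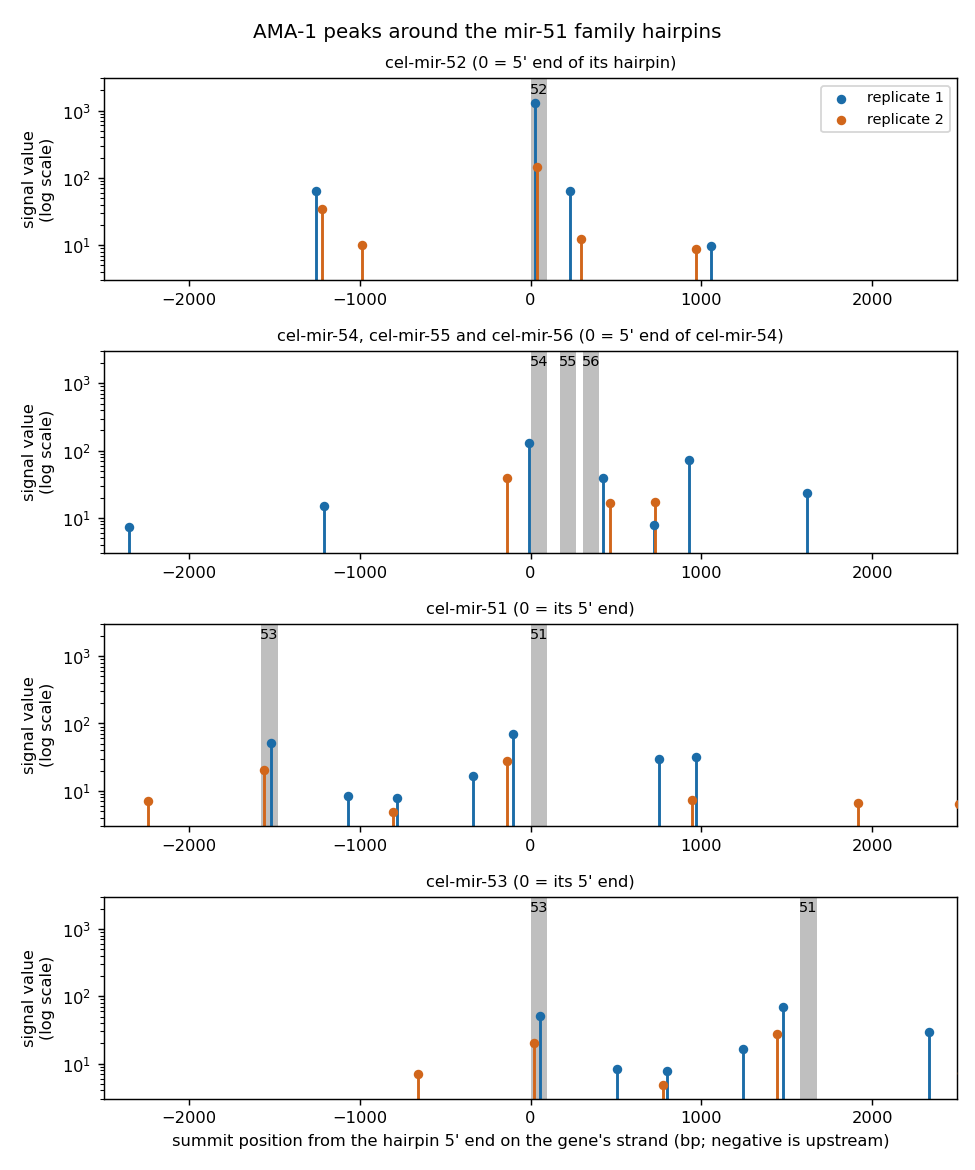
AMA-1 summits around the 4 loci of the family, with distance from the hairpin's 5′ end on the gene's strand in bp on the x axis and the signal value on a logarithmic y axis, replicate 1 in blue, replicate 2 in orange, and hairpins as grey bars. The summits at cel-mir-52 and cel-mir-53 stand inside the hairpin, those at cel-mir-51 and the cluster stand upstream of it, and cel-mir-52 carries 1292.34 and 144.16 against 50.5 and 20.3 at cel-mir-53.

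The order of the 4 loci by height was the same in both replicates, cel-mir-52 first, then the X cluster, cel-mir-51 and cel-mir-53. Over the 2 replicates the ranks were 1 and 1 for cel-mir-52, 20 and 17 for the cluster, 99 and 47 for cel-mir-51, and 252 and 185 for cel-mir-53, so the ranges of neighbouring loci did not overlap. The distance between the first locus and the others differed between replicates. In replicate 1 the cluster reached 10.2%, cel-mir-51 5.42% and cel-mir-53 3.91% of the cel-mir-52 signal value. In replicate 2 these shares were 27.4%, 19.2% and 14.1%. The ratio of the replicate 1 to the replicate 2 signal value was 8.96 at cel-mir-52, 3.33 at the cluster, 2.53 at cel-mir-51 and 2.49 at cel-mir-53. Among 92 other miRNA genes with a peak in both lists, the median ratio was 2.54, with quartiles of 1.63 and 3.60. For these genes the highest peak was taken in each replicate on its own, so the 2 values can come from different peaks. Genes of a cluster repeat a shared peak, and the 92 include cel-mir-55b, through the peak of the X cluster. The rank of cel-mir-52 was thus the same in both replicates, whereas its lead over the other loci was larger in replicate 1; the scales of the 2 lists and their read depths are unknown.

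**Figure D2:**
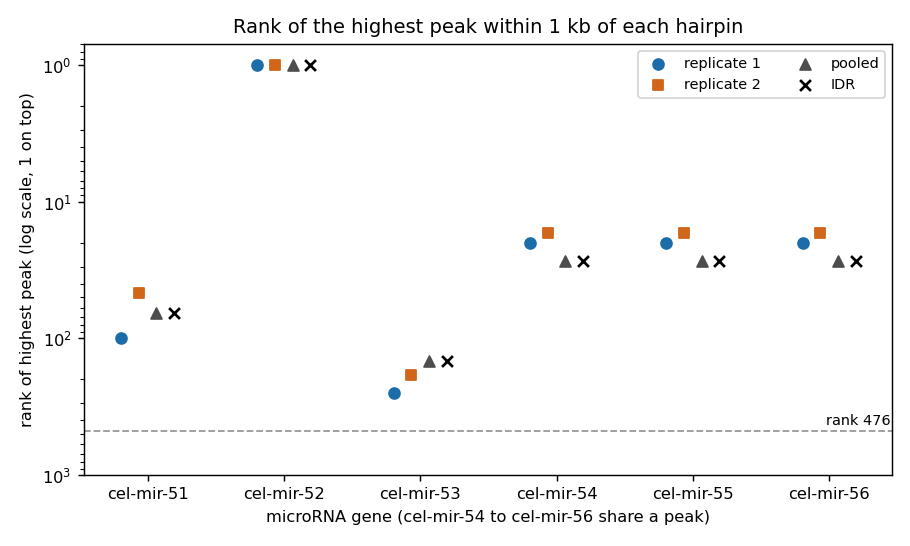
Rank of the highest peak within 1 kb of each member (y axis, logarithmic, rank 1 on top) in replicate 1, replicate 2, the pooled list and the IDR list, with the dashed line at rank 476, the length of the IDR list. cel-mir-52 is at rank 1 in all 4 lists, and no member falls below rank 252.

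Around the members the lists also held many low peaks. Within 1 kb of any member there were 13 distinct peaks in the pooled list, 14 in replicate 1 and 12 in replicate 2. In each replicate 6 of these were among the 476 highest, as in the pooled list. The rest had ranks down to 26869 in replicate 1 and 26428 in replicate 2.

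Beside the other miRNA genes, the family stood high, as the choice of its members fixes. All 6 members had an IDR summit within 1 kb, against 27 of the other 255 miRNA genes (10.6%, exact 95% Clopper-Pearson interval 7.09% to 15.03%, counting error only). That interval treats the genes as independent, although clustered genes share a summit, so it is too narrow. Counted by locus the share of the others was 17 of 217 (7.83%). Over all 261 miRNA genes the share was 12.6%. Among the 476 highest peaks of replicate 1 the family again had 6 of 6, against 30 of 255 others, with 13.8% over all 261. For replicate 2 it was 6 of 6 against 19 of 255, with 9.58% over all. In each of these counts the others include cel-mir-55b, through the peak it shares with the X cluster. Nothing is read from these counts, since the rule used the same lists. The median rank of the highest peak was 20 in the family (1 to 252) and 6182 among the 124 other genes with any peak in replicate 1. In replicate 2 it was 17 in the family (1 to 185) and 8712.5 among 132 other genes. The X cluster's shared peak enters these family medians once for each of its members, so both medians equal its rank. By locus the family ranks were 1, 20, 99 and 252 in replicate 1 and 1, 17, 47 and 185 in replicate 2.

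Counted as loci, with miRNA genes within 1 kb of each other joined, 21 loci had an IDR summit. Ordered by rank, the 4 family loci took places 1, 5, 7 and 13 of the 21. Places 2 to 4 fell to cel-mir-58a of the mir-58 (bantam-related) family at rank 11, cel-mir-62 at rank 12 and the cel-mir-35 to cel-mir-41 cluster at rank 19.

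The sets of miRNA genes chosen for comparison with the family gave the following values. The X cluster of the mir-51 family, with 131.5 in replicate 1, 39.5 in replicate 2 and 135.5 in the IDR list, lay close to the mir-35 to mir-41 cluster, which is required in the embryo. The 7 genes of that cluster shared 1 summit with a signal value of 125.1 at rank 26 in replicate 1, 35.9 at rank 23 in replicate 2 and 153.5 in the IDR list. cel-mir-53, with 50.5 and 20.3 in replicates 1 and 2, lay near the mir-42 to mir-44 genes, which shared a summit with 56.01 at rank 192 in replicate 1 and 23.0 at rank 111 in replicate 2. Of the 5 mir-58 family genes compared, 2 had an IDR summit, cel-mir-58a with 223.8 and 50.5 in replicates 1 and 2, and cel-mir-80 at rank 412. The annotated gene cel-mir-58c was not among the 5 and had no IDR summit within 1 kb. By the distance between log2 signal values over the 2 replicates, the other miRNA genes most like cel-mir-52 among the 92 compared were cel-mir-58a (2.95), cel-mir-62 (3.42) and cel-mir-55b (3.79), the last through the peak it shares with the X cluster. A distance of 2.95 log2 units leaves even the closest of them far from cel-mir-52. The highest peak was taken in each replicate on its own, so the 2 values of a gene can come from different peaks. At cel-mir-62 the summit lay 607 bp downstream of the 5′ end in replicate 1 and 513 bp upstream of it in replicate 2.

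**Figure D3:**
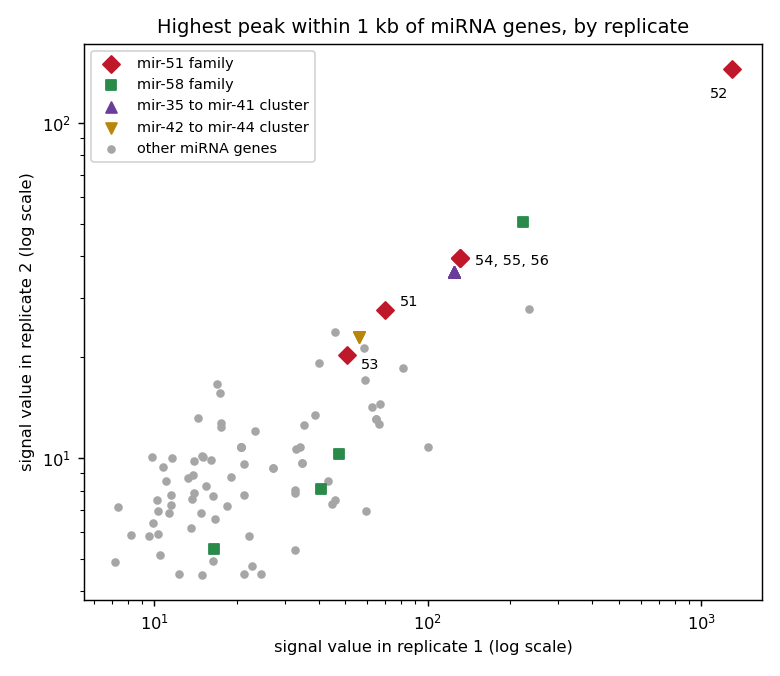
Signal value of the highest peak within 1 kb of each miRNA gene in replicate 1 (x axis) and replicate 2 (y axis), both logarithmic, for genes with a peak in both lists. The 2 values of a gene can come from different peaks. The mir-51 family (red diamonds) runs between cel-mir-53 at 50.5 and 20.3 and cel-mir-52 at 1292.34 and 144.16, and its X cluster lies next to the mir-35 to mir-41 cluster.

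The summits were close to the hairpins. In the IDR list 4 of the 6 members had the highest summit upstream of the 5′ end and 2 had it inside the hairpin, with a median position 71 bp upstream and a range between 357 bp upstream and 37 bp downstream of the 5′ end. The X cluster members share a single summit, which enters this count and median once per member. By locus the summit was upstream at cel-mir-51 and the X cluster and inside the hairpin at cel-mir-52 and cel-mir-53. Among the 27 other miRNA genes with an IDR summit, 17 had it upstream, 5 inside the hairpin and 5 beyond it. Their median was 59 bp upstream, with a range between 998 bp upstream and 1050 bp downstream. These are also counts of genes, and clustered genes such as cel-mir-35 to cel-mir-41 share a summit. The others include cel-mir-55b, whose highest IDR summit is that of the X cluster. The highest IDR summit lay within 250 bp of the hairpin gene at 5 of 6 members, all but cel-mir-56, and at 19 of 27 others. The median positions of the family and of the others thus differed by less than the width of a peak.

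**Figure D4:**
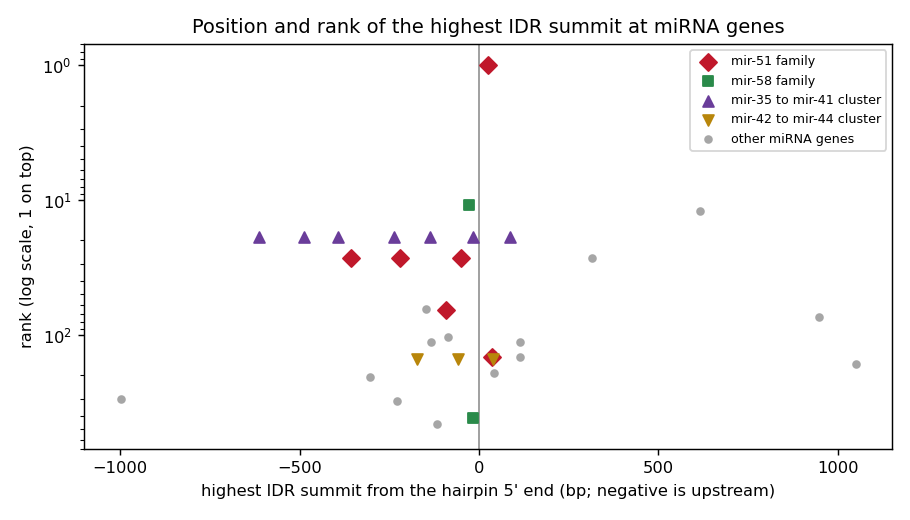
Distance of the highest IDR summit from the hairpin's 5′ end on the gene's strand in bp (x axis, negative upstream) against its rank (y axis, logarithmic, rank 1 on top) for the 6 members and 27 other miRNA genes. The members (red diamonds) lie between 357 bp upstream and 37 bp downstream, and the others spread between -998 and 1050 bp.

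Repeated sequence can change how reads are placed, so the uniqueness of the loci was measured. Every 31-base word of the window from 250 bp before to 250 bp after each hairpin occurred once in the genome at all 6 members, and the same was true at 178 of the other 255 miRNA genes. The authors' read length is unknown here. cel-mir-52 and cel-mir-53, with hairpins 79% identical, were therefore distinct at this word length. The GC content of these windows was between 37.7% and 47.7% in the family, with a median of 44.6%, and between 24.1% and 54.5% in the others, with a median of 38.0%.

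The 1000 bp upstream of each hairpin was searched on both strands for 3 short motifs, counting overlapping matches. CTCCGCCC, a word reported upstream of C. elegans miRNA genes, matched in 4 of the 6 members, against 35 of all 261 miRNA genes (13.4%). These 4 rest on 2 matches, one 458 bp upstream of cel-mir-52 and one 308 bp upstream of cel-mir-54 that also falls in the windows of cel-mir-55 and cel-mir-56. GAGAGA, the core recognised by GAGA factors in flies, matched in 5 of 6 members, at 3 of the 4 loci, and in 54.8% of all, with 10 matches upstream of cel-mir-52 and 8 upstream of cel-mir-53, the nearest at 110 and 24 bp. cel-mir-51 had neither of these words. The 3 members of the X cluster share their nearest match of each motif, so they do not count separately. TATAAA, the TATA box core, matched in 6 of 6 members, at 4 of 4 loci, and in 72.8% of all, the nearest being 12 bp upstream of cel-mir-53. In windows of 500 bp, CTCCGCCC matched in 3 of 6 members and 10.3% of all, GAGAGA in 5 of 6 and 36.8% of all, and TATAAA in 2 of 6 and 46% of all. A match describes the letters in the window and is no measurement of binding.

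The genes that make and use miRNAs were examined from a list of 21 names, which also held the reported family target cdh-3. Of these names 20 were found in the annotation (ntl-1 was not matched by that symbol). An IDR summit between 500 bp upstream of the start and the end lay at 3 of the 20, against 1.52% of 19973 protein-coding genes. The 3 were drsh-1, which encodes Drosha, at rank 255, alg-1, an Argonaute that carries miRNAs, at rank 295, and xrn-2, an exonuclease that degrades them, at rank 314. The lowest family peak, that of cel-mir-53, had a signal value of 73.1 in the IDR list, above the 60.0 of drsh-1, the 57.8 of alg-1 and the 56.5 of xrn-2. The same 3 were the pathway genes among the 476 highest peaks of replicate 1, with ranks 250, 176 and 217, where the share of all protein-coding genes was 1.51%. In replicate 2 they ranked 4311, 3541 and 8625. The pathway genes among the 476 highest peaks of replicate 2 were 2 of the 20, against 1.85% of all protein-coding genes: pab-1, the poly(A)-binding protein gene, at rank 217 and let-711, the CCR4-NOT scaffold gene, at rank 242. No pathway gene was thus among the 476 highest of both replicates. pash-1, which encodes Pasha, ranked 8946 in the pooled list and dcr-1, which encodes Dicer, ranked 9996. The reported family target cdh-3 had its highest summit at rank 2785 in the pooled list, 3836 in replicate 1 and 2058 in replicate 2.

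As a check of the labelled material, 18 markers of muscle, epidermis, pharynx, intestine, neurons and germline were looked up. None had an IDR summit, where a count of 0 allows up to 3 of 18 and the share of all protein-coding genes was 1.52%, so the IDR list says little about these tissues. In the relaxed lists 11 of the 18 had a peak in replicate 1, against 41.8% of all protein-coding genes, and 14 in replicate 2, against 56.3%, the highest being lin-26, an epidermal regulator, at rank 204 in replicate 2, while elt-7, glh-1 and nos-2 had none in either. Since whole embryos were used, more polymerase per cell and more cells with polymerase at a family locus cannot be told apart.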

How the data were processed

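ChIP-seq against AMA-1 was done on 2 biological replicates of N2 late embryos. According to the text that accompanies the lists, the authors made a relaxed list from each replicate's alignments and a further file, a pooled list from both alignments, and an IDR list from these 3. The sources used here name no aligner, peak-calling program or version, nor an IDR threshold or the number of reads, which leaves the depth unknown. The authors' lists on ce11 give a signal value and a −log10 q-value per peak. No control file was analysed, and the lists on ce10 were not used.

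Peaks were ranked by the deposited signal value within each list and assigned to a miRNA gene when the summit lay within 1 kb of its body. Genes came from Ensembl release 115 and mature arms from RefSeq, both on WBcel235, with all 6 members matched. Coordinates are 1-based. Python 3.11.15, pandas 2.3.3, numpy 2.4.6, SciPy 1.17.1, Biopython 1.88 and matplotlib 3.10.9 were used, and the assignment was tested on simulated data. The members and lists were chosen with earlier results of these data known. Genes named are the members, their neighbours within 1 kb and nearest protein-coding genes, the 5 other miRNA genes highest in the IDR list, the 3 most like cel-mir-52, the 3 comparison sets, and pathway genes with an IDR summit. cdh-3, pash-1, dcr-1, let-711, pab-1, lin-26, elt-7, glh-1, nos-2 and cel-mir-58c are named outside this rule, with their values seen.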

Additional observations from a re-analysis of the deposited data

How the results depend on the processing

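All 6 members also had a summit within 500 bp among the IDR peaks, and within 1 kb among the 238 highest IDR peaks, the 952 highest pooled peaks and the 476 highest of each replicate. Within 250 bp it was 5, and 4 hairpins overlapped an IDR interval. The median rank of the members' highest peak was 27 in the pooled list, and between 17 and 20 when 1 replicate's list was used alone. It was 46 within 250 bp, where cel-mir-56 is counted at rank 528. The X cluster's shared peak enters these medians once for each member it is assigned to. Ranked by the −log10 q-value, an alternative added after seeing the data, the median rank was 1, because 342 pooled peaks share the highest value. Ranking by column 8 of the lists was not run, since it is −1 at every peak. The share of other miRNA genes was 7.84% within 250 bp, 9.80% within 500 bp and 7.83% counted by locus. No paired analysis was possible because no test was made and both replicates belong to 1 group. Unknown depth, an unstated scale and 2 replicates limit every height given here.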
